A study of Mus musculus with 8 samples.

Results

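The genes described here encode the insulin receptor and the first proteins that carry its signal: the receptor Insr and the related receptor Insrr, the substrates Irs1, Irs2, Irs3 and Irs4, the PI3-kinase subunit Pik3r1, the kinases Akt1 and Akt2, and the adaptor Grb10. They were taken as all non-control probes of the array whose gene name is one of these 10, which gave 18 of 41174 probes, for 9 of the 10 genes, among 27962 gene names on the array. No probe carried the name Irs2 or its RefSeq accession, so Irs2 was not analysed here. RNA came from whole pancreas of C57BL/6 mice aged 1 week, kept with their mothers, that were either wild type (WT, 4 mice) or Glis3KO2 (4 mice). Glis3KO2 is a mouse line that, by its name, lacks Glis3, a zinc finger transcription factor. The labels do not give the deleted part or any conditional driver, and they do not say whether mice of 1 genotype came from separate litters. The p-values therefore measure the spread between these samples. By its title, the study is about how pancreatic beta cells, the makers of insulin, develop and mature.

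Insulin binds a receptor tyrosine kinase at the cell surface, which then phosphorylates the insulin receptor substrates. The phosphorylated substrates recruit PI3-kinase through its regulatory subunits, and the lipid that PI3-kinase makes brings AKT kinases to the membrane, where they are activated. AKT in turn restrains FOXO transcription factors and promotes growth and glucose storage. In many tissues FOXO factors raise transcription of the receptor and of Irs2 when insulin is scarce. In the pancreas both beta cells, which are exposed to their own insulin, and acinar cells, which neighbour the islets, carry the receptor.

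The members are read by probes of 60 bases, and 4 of them are shown here with their positions. All 4 lie on the minus strand. The Insr probe is at chr8:3058920-3058979, the brighter Irs4 probe at chrX:136386659-136386718, the 5′ Akt1 probe at chr12:110187243-110196509 and the 5′-most Pik3r1 probe at chr13:98797997-98799039, all in mouse build mm7 as the array files give it. The last pair of probes each cover more of the genome (9267 and 1043 bases) than their own length, so each joins exons across a splice site. The Insr, Irs4 and Pik3r1 sequences are open, with no stop codon, in 1 of 3 reading frames, and the Akt1 sequence in 2. The capitals in the Akt1 probe mark its first ATG.
Insr: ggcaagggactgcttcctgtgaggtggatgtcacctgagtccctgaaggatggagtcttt
Irs4: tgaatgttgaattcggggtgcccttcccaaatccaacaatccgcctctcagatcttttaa
Akt1: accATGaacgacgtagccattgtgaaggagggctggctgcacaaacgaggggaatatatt
Pik3r1: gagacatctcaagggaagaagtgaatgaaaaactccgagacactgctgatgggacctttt

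Each mouse was read on 1 single-colour array, and between 76.1% and 86.5% of probes per array were well above background. All WT arrays lay on 1 slide, scanned at one time, and all Glis3KO2 arrays on another, so genotype and slide cannot be told apart. Xist, the RNA that silences an X chromosome in female cells, was abundant in 1 WT mouse and in 3 Glis3KO2 mice. Of the 10 beta cell markers 7 fell (limma), with a summed level of 734 to 904 on WT and 192 to 397 on Glis3KO2 arrays, in units of each array's 75th percentile of signal. The 10 include Ins1 and Ins2, which hold most of the WT sum, so that sum is not separate from the insulin values given below. A sum without them was not computed. The summed levels of endothelial markers (22.1 to 26.4 on WT and 16.9 to 20.9 on Glis3KO2 arrays) and of liver markers (1.16 to 2.09 and 2.38 to 2.70) also did not overlap, with 0 members past the threshold, and their part in the values below was not tested. The 10 acinar markers, which define most of the tissue, had 0 members past the threshold and a summed level of 3810 to 4460 on WT and 3321 to 4294 on Glis3KO2 arrays. Glis3KO2 replicates 3 and 4 stood apart on the first principal component, which held 26.5% of the variance, at 39.8 and 59.0 against -26.0 to 0.46 for the other 6 arrays. In RNA from whole tissue, fewer cells of a type and less RNA per cell cannot be told apart. Levels below are on a log2 scale, as signal over the 75th percentile of its own array, and differences are Glis3KO2 minus WT on that scale.

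The question asked of these genes was how receptor and substrate transcripts stood where insulin transcripts were low. Ins2 was at 9.02, 8.77, 9.01 and 9.07 on the WT arrays and at 5.83, 5.31, 5.26 and 4.67 on the Glis3KO2 arrays, and Ins1 had a log2 difference of -2.54. None of the receptor, substrate or kinase genes passed the threshold. Of the 18 member probes 16 were bright enough to test, and 0 of 16 passed an adjusted p of 0.05 in either direction (limma, Benjamini-Hochberg over 33239 probes), where 0.256% of all tested probes did (0.0812% higher and 0.174% lower in Glis3KO2). Also 0 of 16 had an unadjusted p under 0.05 with this scaling, against 8.97% of all tested probes. Of the 16 differences 9 were positive and 7 negative, with a median of 0.04 against -0.01 for all tested probes. The median size of a difference was 0.15, against 0.13 for all tested probes. The smallest adjusted p among them was 0.570.

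**Figure D1:**
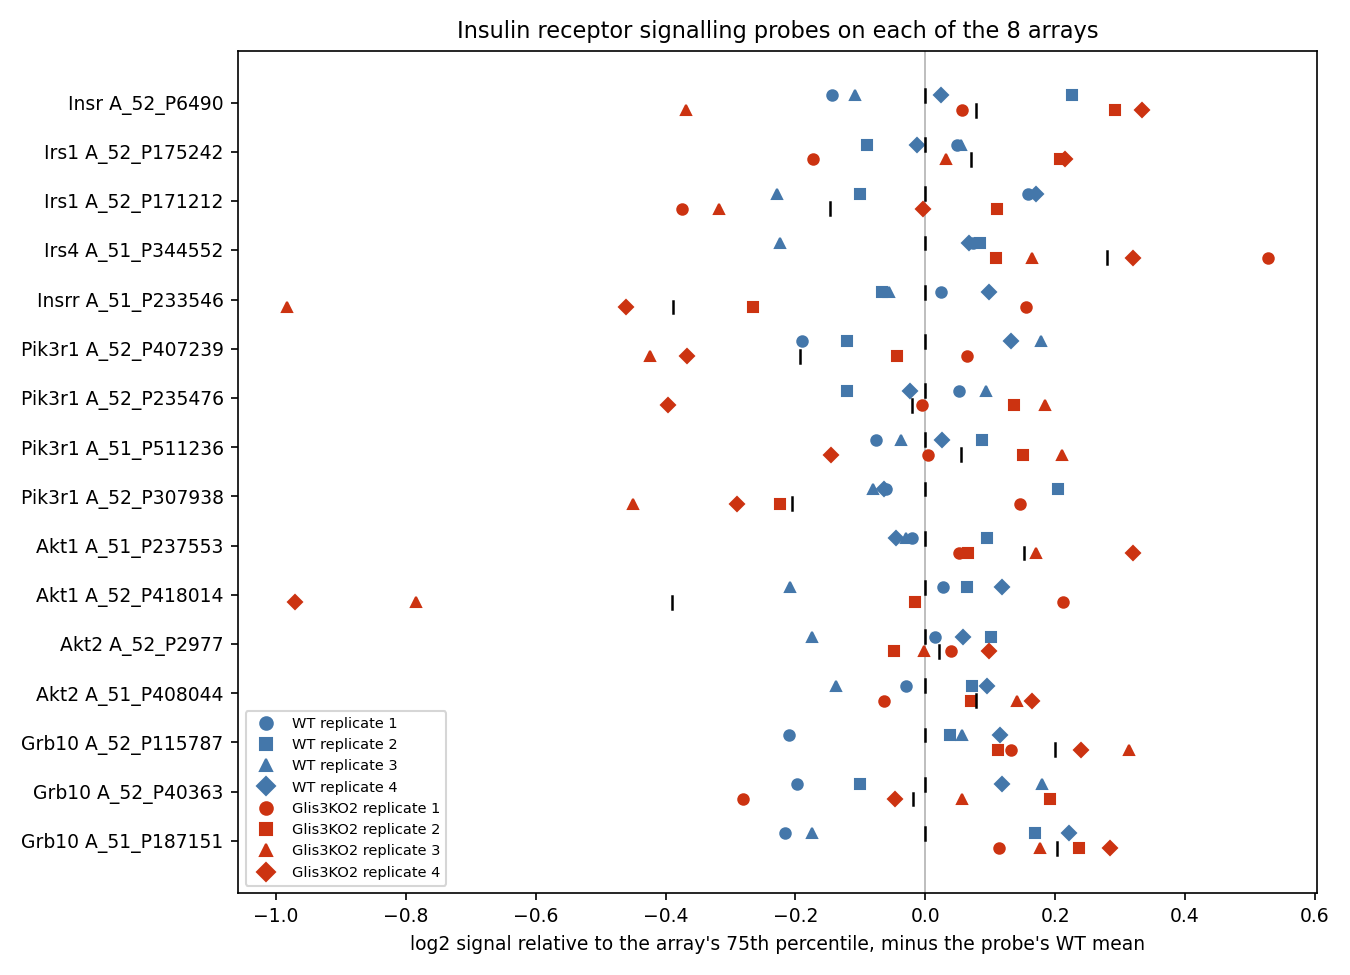
Each row is a tested member probe, labelled by gene and array probe ID, and each point is 1 array: its level, log2 of signal over that array's 75th percentile, minus the mean of the 4 WT arrays. Blue symbols are WT, red symbols Glis3KO2, and black bars the group means. In 15 of the 16 rows the red and blue points overlap, and the exception is Irs4.

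The 95% interval of each difference shows how large a change in whole-pancreas RNA the replicate spread alone could have hidden. It is taken by limma from the spread within each genotype and is not adjusted for the number of probes. Each genotype lay on its own slide, so the interval does not account for an offset between slides. It also does not bound a change within 1 cell type, which was not tested. All 16 intervals lay within a 2-fold change in either direction, and 14 of them within 1.5-fold. The half-width ran from 0.22 to 0.58 on the log2 scale. The interval for Ins2, -4.19 to -3.21, lay far outside that range.

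**Figure D2:**
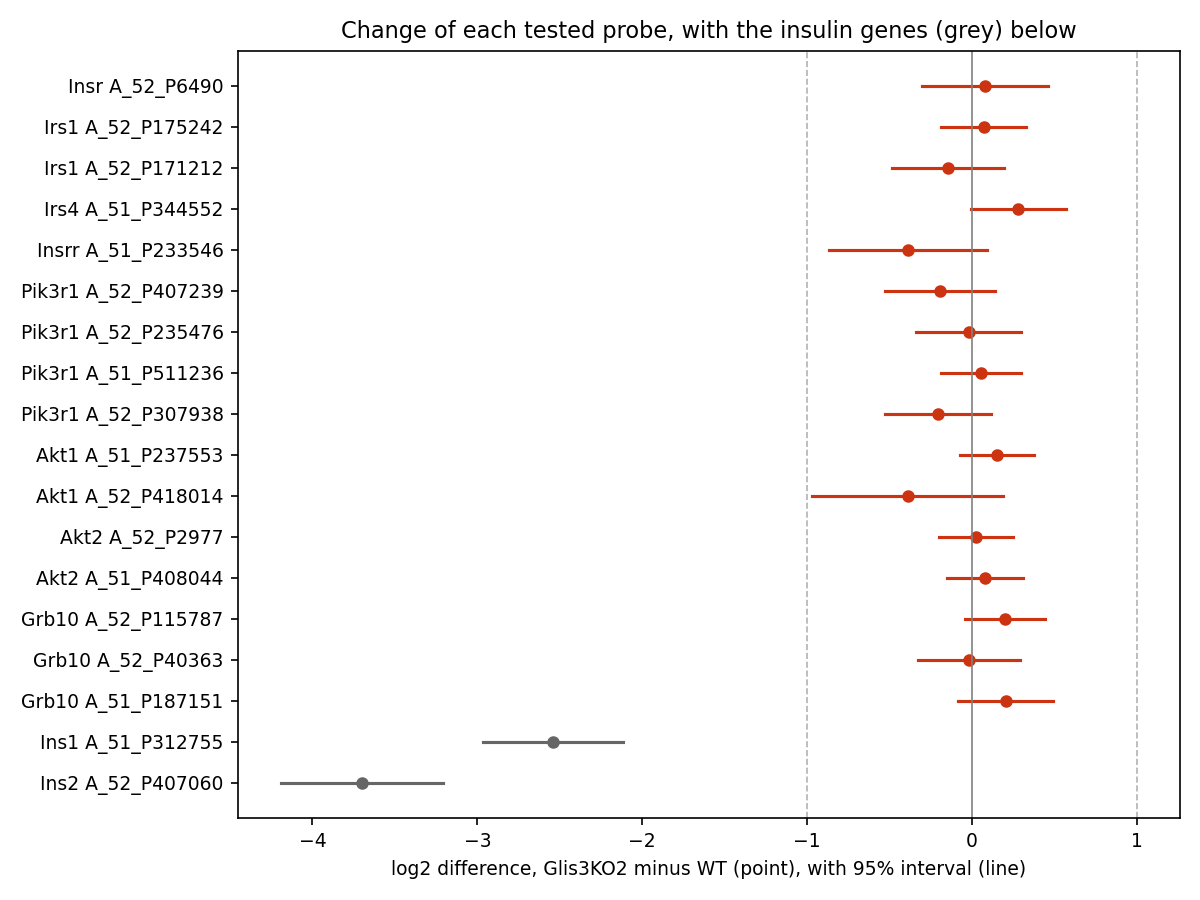
Points are log2 differences, Glis3KO2 minus WT, for the 16 tested member probes (red) and for the brightest Ins1 and Ins2 probes (grey). Lines are 95% intervals and dashed lines mark a 2-fold change. Every red line crosses 0 and stays between the dashed lines, while the Ins2 interval runs from -4.19 to -3.21.

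Insr, the receptor itself, did not differ beyond its replicate spread. Its probe gave -4.19, -3.82, -4.16 and -4.02 in WT (replicates 1 to 4, the order used throughout) and -3.99, -3.75, -4.42 and -3.71 in Glis3KO2. Glis3KO2 arrays held both the lowest value and the highest ones, with the WT arrays between. The difference was 0.08 (SE 0.17, 95% interval -0.30 to 0.46, limma adjusted p = 0.933). By the replicate spread alone, that interval ran from a fall of 1.23-fold to a rise of 1.38-fold. The probe was dim, although well above background on all 8 arrays, and its difference turned to -0.07 with normexp background correction, which adds an offset to every spot.

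A further probe, 7.91 kb downstream on the same strand at chr8:3051011-3051070, is named D630014A15Rik in the array files, a name that RefSeq lists as a synonym of Insr. It lies outside the rule that chose the members and was looked at after values were seen. Its levels were -0.97, -1.0, -0.63 and -1.04 in WT and -1.07, -0.98, -0.79 and -0.98 in Glis3KO2. The groups overlapped, and the difference was -0.04 (95% interval -0.32 to 0.23, limma adjusted p = 0.951).

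Insrr, the orphan receptor of the family, which is known to respond to alkaline pH and to be made in islet cells, had the largest difference of the genes when each is read from its brightest probe. It was at -1.33, -1.42, -1.41 and -1.26 in WT and at -1.20, -1.62, -2.34 and -1.82 in Glis3KO2. The WT arrays lay close together (SD 0.08), while the Glis3KO2 arrays spread from the highest of all 8 values on replicate 1 to the lowest on replicate 3 (SD 0.47). The difference was -0.39 (95% interval -0.87 to 0.09, limma adjusted p = 0.645, exact permutation p = 0.171, 2-sided). Without Glis3KO2 replicates 3 and 4 it was -0.06, and without replicate 3 alone -0.19. Glis3KO2 replicates 3 and 4 were also the arrays with the lowest Ins2 and Ins1 levels, and the part of that in the Insrr values was not tested.

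The genes whose profile over the 8 arrays was most like that of Insrr, by the root mean square difference after each was centred on its own mean, were Slc7a14 (0.09), Tnks (0.09) and Gng3 (0.09). Slc7a14 belongs to a family of amino acid carriers, Tnks encodes the poly-ADP-ribosylating enzyme tankyrase, and Gng3 a G protein gamma subunit. None of them passed the threshold either, with log2 differences of -0.38, -0.42 and -0.34 (limma adjusted p = 0.645, 0.666 and 0.611). They were the closest of the 33239 tested probes once these were limited to genes with a RefSeq accession match. With 8 arrays such close profiles are a description only.

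Among the substrates, Irs1, the substrate best known from muscle and fat, was read by 2 probes that lie 3.87 kb apart. The brighter, nearer the 3′ end at chr1:82447810-82447869, gave 1.37, 1.23, 1.37 and 1.30 in WT and 1.14, 1.53, 1.35 and 1.53 in Glis3KO2. Its groups overlapped, and the difference was 0.07 (95% interval -0.19 to 0.33, limma adjusted p = 0.909). The dimmer probe, at chr1:82451682-82451741, gave a difference of -0.15 (95% interval -0.49 to 0.19, limma adjusted p = 0.83). The probes thus differed in sign, but the within-array gap between them, 5.64 ± 0.21 in WT and 5.85 ± 0.10 in Glis3KO2 (SD, n = 4), did not differ beyond its spread (exact permutation p = 0.114, 2-sided).

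Irs4, an X-linked substrate, was the only member probe whose groups did not overlap, in a background of 5.2% of all tested probes (1.86% with all Glis3KO2 arrays higher, as here, and 3.35% with all lower). It was at -1.62, -1.61, -1.92 and -1.63 in WT and at -1.17, -1.59, -1.53 and -1.38 in Glis3KO2. The gap between the highest WT and the lowest Glis3KO2 array was small, from -1.61 to -1.59, and WT replicate 3 lay well below the other WT arrays. The difference was 0.28 (SE 0.13, 95% interval -0.01 to 0.57, limma adjusted p = 0.570), and the exact permutation test over the 8 arrays gave p = 0.0286 before any adjustment, the smallest that 4 against 4 allows. With quantile normalization and with normexp background the groups overlapped, with differences of 0.29 and 0.17. With median scaling they did not overlap, and the difference was 0.31.

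Since Irs4 lies on the X chromosome and the genotypes held unequal numbers of arrays with high Xist, the values were set side by side. The 3 WT arrays with low Xist had Irs4 at -1.62, -1.61 and -1.92, and the single WT array with high Xist had -1.63. The 3 Glis3KO2 arrays with high Xist had -1.17, -1.53 and -1.38, and the one with low Xist -1.59. With the Xist level as a covariate the Irs4 difference was 0.20 (limma adjusted p = 1.00). A further Irs4 probe, 10.8 kb nearer the 3′ end, rose clear of background on only 1 array, of Glis3KO2, and was not tested.

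Irs3, a substrate of rodent fat, was not well above background on any array. Its probe at chr5:136561942-136562001 had raw processed signals of 2.19 to 3.74, where the 75th percentile of an array was 460 to 694, and no fold is given.

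Pik3r1, the regulatory subunit that docks PI3-kinase on the substrates, was read by 4 probes. The brightest, at chr13:98794799-98794858, gave 0.40, 0.47, 0.77 and 0.73 in WT and 0.66, 0.55, 0.17 and 0.23 in Glis3KO2. Glis3KO2 replicates 3 and 4 were below all WT arrays and replicates 1 and 2 within their range. The difference was -0.19 (95% interval -0.53 to 0.14, limma adjusted p = 0.753), and 0.01 without Glis3KO2 replicates 3 and 4. The exon-spanning probe printed above, 3.69 kb nearer the 5′ end, had a difference of -0.21 (95% interval -0.53 to 0.12). Its Glis3KO2 arrays stood in the same order, with -1.07, -1.44, -1.67 and -1.51 on Glis3KO2 replicates 1 to 4 against -1.28, -1.01, -1.30 and -1.28 in WT. The 2 probes on the 3′ side of the brightest had differences of 0.05 and -0.02.

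Akt1, the broadly expressed AKT kinase, showed the largest genotype difference between probes of 1 gene, 0.54, although it did not exceed the replicate spread. The 3′ probe at chr12:110178813-110178872 is printed in 10 spots on each array, whose coefficient of variation ran from 1.93% to 5.88%, so its own measurement error is small. It gave 4.40, 4.51, 4.39 and 4.37 in WT and 4.47, 4.48, 4.59 and 4.74 in Glis3KO2, a difference of 0.15 (95% interval -0.07 to 0.38, limma adjusted p = 0.706). The 5′ probe shown above, 13.0 kb away in the genome, gave -0.87, -0.83, -1.11 and -0.78 in WT and -0.68, -0.91, -1.68 and -1.87 in Glis3KO2. Replicates 3 and 4 were far below the rest on this probe and were the highest of all on the 3′ probe.

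The 5′ Akt1 probe had a difference of -0.39 (95% interval -0.97 to 0.19, limma adjusted p = 0.707). The within-array gap between the probes, 3′ minus 5′, was 5.27, 5.34, 5.49 and 5.15 in WT and 5.15, 5.40, 6.27 and 6.60 in Glis3KO2. The genotypes did not differ in that gap beyond their spread (exact permutation p = 0.257, 2-sided), and Glis3KO2 replicates 1 and 2 lay near the WT arrays. A measure that RNA quality can affect, the balance of 3′ and 5′ signal over many genes, moved with it. Over 4582 genes with tested probes at least 1 kb apart, the median 3′ minus 5′ signal relative to the WT mean was 0.089 on both Glis3KO2 replicates 3 and 4, and between -0.066 and 0.024 on the other 6 arrays. That measure was added after values were seen, and its part in the Akt1, Pik3r1 and Insrr values was not tested.

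**Figure D3:**
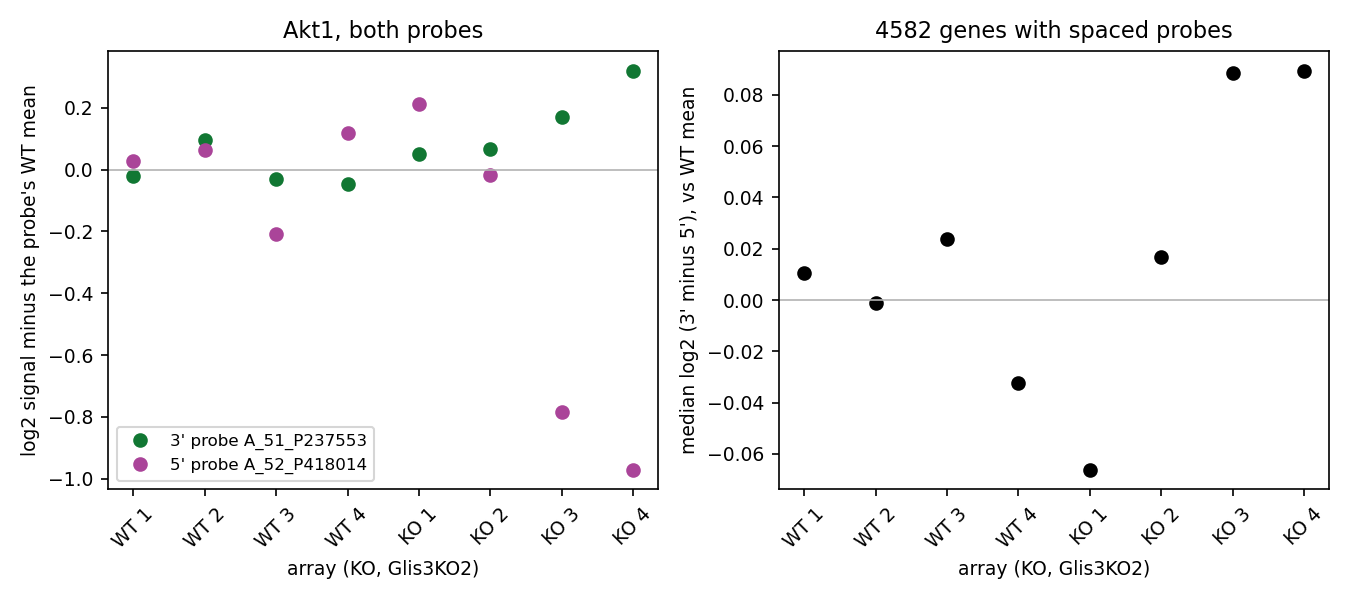
Left, the log2 signal of the 3′ Akt1 probe (green) and the 5′ Akt1 probe (purple) on each array, minus the probe's WT mean. Right, on a narrower axis, the median over 4582 genes of the 3′ minus 5′ probe signal, relative to its WT mean. Glis3KO2 replicates 3 and 4 carry the widest split between the Akt1 probes and the highest medians (0.089).

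Akt2, the AKT kinase most tied to glucose uptake, had the smallest difference of the 8 tested genes. Its brighter probe, at chr7:24558143-24558202, gave 1.76, 1.84, 1.57 and 1.80 in WT and 1.78, 1.70, 1.74 and 1.84 in Glis3KO2. The Glis3KO2 arrays lay within the WT range, with a difference of 0.02 (95% interval -0.20 to 0.25, limma adjusted p = 0.974). The second probe, 1.85 kb toward the 5′ end and across a splice site (141 bases of genome), had a difference of 0.08 (95% interval -0.15 to 0.31). Set against Akt1 within each array, the brightest Akt2 probe had a gap of -2.67 ± 0.10 in WT and -2.80 ± 0.09 in Glis3KO2 (SD, n = 4), with an exact permutation p of 0.114 (2-sided), so unequal change of the kinases was not shown.

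Grb10, an imprinted adaptor that binds the active receptor and dampens its signal, was read by 3 probes. The brightest, at chr11:11882970-11883029, gave 3.91, 4.16, 4.18 and 4.24 in WT and 4.25, 4.23, 4.43 and 4.36 in Glis3KO2. Only Glis3KO2 replicate 2 lay below the highest WT array, and WT replicate 1 was the lowest of all. The difference was 0.20 (SE 0.11, 95% interval -0.04 to 0.44, limma adjusted p = 0.641, exact permutation p = 0.0571, 2-sided). A probe 2.91 kb toward the 5′ end had a like difference of 0.20 (95% interval -0.09 to 0.49), with levels of -2.75 to -2.31 in WT and -2.42 to -2.25 in Glis3KO2. The probe 39.6 kb toward the 5′ end, at chr11:11922579-11922638, had a difference of -0.02 (95% interval -0.33 to 0.29).

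Within-array gaps were computed for 10 pairs in all: the brightest probe of a gene against each other tested probe of it, Akt2 against Akt1, and Insr against Igf1r. None passed the threshold after Benjamini-Hochberg adjustment, the smallest adjusted p being 0.381 and the smallest exact permutation p 0.114. With 10 pairs and a smallest possible p of 0.0286, a single separated pair could not have passed after adjustment. Without WT replicate 3, or without Glis3KO2 replicate 1, the smallest exact permutation p was 0.0286, and again none passed. Insr minus Igf1r was -5.75 ± 0.24 in WT and -5.46 ± 0.35 in Glis3KO2 (SD, n = 4), a rise of 0.29 in the gap with an exact permutation p of 0.200 (2-sided). That gap used the dim Insr probe. The brighter probe named D630014A15Rik was not set against Igf1r.

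The wider pathway was read in the same way. Of 107 other genes listed by role, 107 were tested, 0 rose and 2 fell, and those 2 were Ins1 and Ins2, where 0.256% of all tested probes passed. With the insulin genes set aside, 56 of 105 differences were positive and 49 negative, with a median of 0.01 and a range of -0.57 to 0.58. At an unadjusted p under 0.05 there were 6 of the 107, the insulin genes included, against 8.97% of all tested probes.

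Among ligands other than insulin, Igf1 had a difference of -0.03 (95% interval -0.27 to 0.21) and Igf2 one of 0.02. Igf1r, the receptor for both growth factors, was lower on every Glis3KO2 array than on any WT array, at 1.65, 1.68, 1.88 and 1.61 in WT and 1.34, 1.55, 1.56 and 1.52 in Glis3KO2. That difference of -0.21 did not pass the threshold (95% interval -0.45 to 0.02, limma adjusted p = 0.603).

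The further genes with groups that did not overlap were Slc2a1 and Rictor, so 3 of the 105 stood apart in this way, against 5.2% of all tested probes. Slc2a1, the basal glucose transporter, was at 0.88, 0.87, 0.90 and 0.74 in WT and at 0.35, 0.40, 0.74 and 0.50 in Glis3KO2 (difference -0.35, 95% interval -0.61 to -0.10, limma adjusted p = 0.393). Its groups were barely apart, at 0.743 on the lowest WT and 0.740 on the highest Glis3KO2 array. Rictor, the defining subunit of the TOR complex that phosphorylates AKT, was at -1.44, -1.40, -1.42 and -1.15 in WT and at -1.63, -1.54, -1.91 and -1.94 in Glis3KO2 (difference -0.40, 95% interval -0.69 to -0.12, limma adjusted p = 0.389). Neither passed the threshold over all probes.

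Transcripts known to respond to insulin action were listed apart. Among 18 genes that FOXO factors activate, 0 passed the threshold, with 15 positive and 3 negative differences. Their median was 0.08, against -0.01 for all tested probes, and no set test was run on these lists. Over the 105 pathway genes without Ins1 and Ins2, these 18 included, 56 differences were positive and 49 negative. Eif4ebp1 (-0.02) is counted both among the 18 and in the TOR branch below. Fbxo32, a ubiquitin ligase of muscle wasting, had 0.28, and the pyruvate dehydrogenase kinase Pdk4 had -0.33, with -0.23 for Trib1 (limma adjusted p = 0.572, 0.582 and 0.612). The FOXO factors themselves had 0 of 4 past the threshold, with Foxo4 at 0.29 and Foxo1 at -0.01. The dim Foxo4 probe was at -2.81 on Glis3KO2 replicate 1 and at -3.86 to -3.62 on the other Glis3KO2 arrays, against -3.80 to -3.75 in WT. Among 11 metabolic genes that insulin induces, 0 passed, with 7 positive and 4 negative differences and a median of 0.12. Elovl6, a fatty acid elongase, had 0.58 (limma adjusted p = 0.505), with a level of 1.29 on Glis3KO2 replicate 1 and of 0.22 to 0.65 on the other Glis3KO2 arrays.

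The signalling proteins were counted by role. In the 15 adaptors, 16 inhibitors, 12 genes of the TOR branch and 9 of the MAP kinase branch, 0 passed the threshold, with medians of -0.06, -0.02, 0.00 and -0.03. The 6 further genes of PI3-kinase and its partner PDK1 had a median of -0.04, the 6 further kinases 0.07, and the 5 glucose uptake genes -0.11, again with 0 past the threshold. Further differences in these groups were those of Cblb, a ubiquitin ligase (-0.44), Trib3, a pseudokinase that binds AKT (-0.57), and Sgk1, a kinase related to AKT (0.39), with adjusted p of 0.551, 0.721 and 0.693 (limma). Trib3 ran from -0.46 to 1.62 in WT, and its Glis3KO2 arrays, at -0.14 to 0.18, lay within that range. Sgk1 was above the highest WT array (2.36) only on Glis3KO2 replicates 3 and 4 (2.83 and 3.03).

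**Figure D4:**
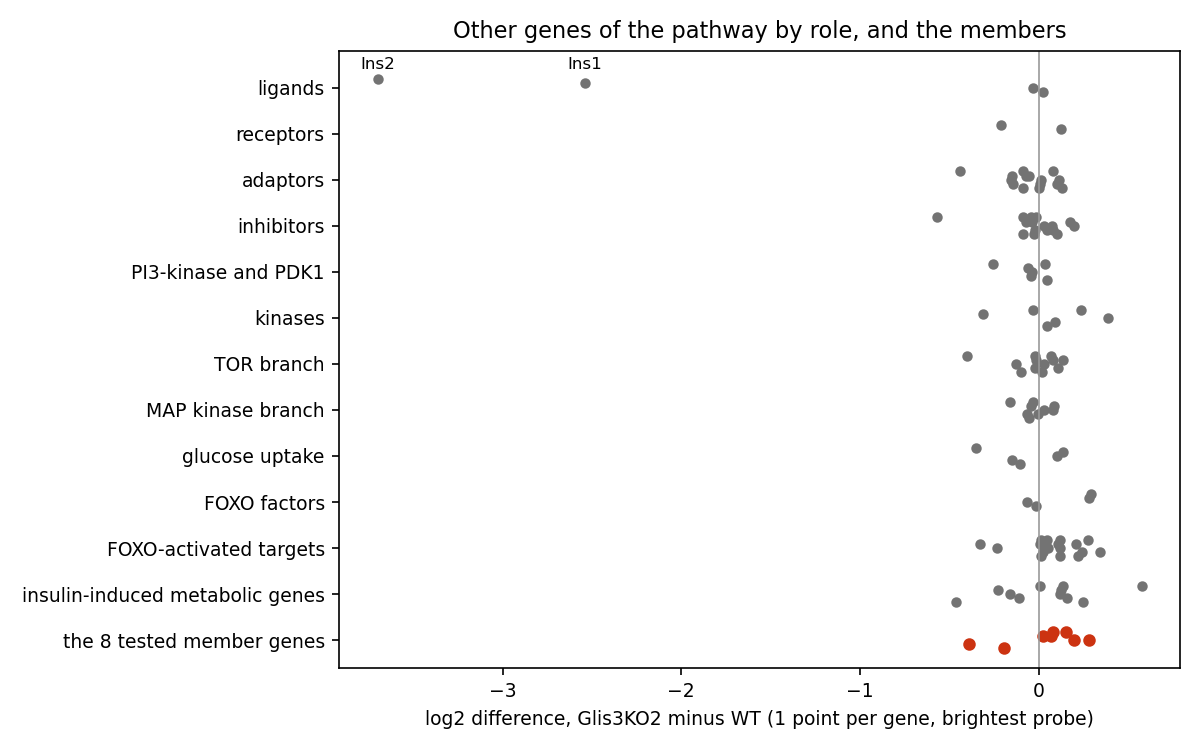
Each point is 1 gene, read from its brightest probe and placed by its log2 difference, Glis3KO2 minus WT. Grey points are the 107 other pathway genes by role and red points the 8 tested member genes. Ins2 (-3.70) and Ins1 (-2.54) stand apart on the left, and all other genes lie between -0.57 and 0.58.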

How the data were processed

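Total RNA of each pancreas was labelled with Cy3 from 500 ng, per the labels' protocols. The deposited values are linear-scale intensity readings of spots, made by the authors with Agilent Feature Extraction 9.5.3.1 (per the file headers; 9.5 in the submitters' processing notes), background-subtracted and detrended but not scaled between arrays. The authors' series table held the same values on every array.

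From these, each processed signal was divided by its array's 75th percentile (43379 spots, controls excluded) and log2 was taken. Outlier spots (56 to 130 per array) were dropped, repeat spots averaged, and none were saturated. Probes well above background on at least 4 of 8 arrays were tested (33239 of 41174). This scaling hides a change shared by most genes.

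Genotypes were compared with limma 3.58.1 (lmFit, eBayes, 2-sided, R 4.3.3), genotype as the sole term, with p-values adjusted by Benjamini-Hochberg across the tested probes and called under 0.05. Where a gene had several probes, the one with the highest mean level stood for it. Symbols of other genes came from 22951 RefSeq accession matches, then the name in the files. The scripts were tested on simulated data. Python 3.11.15 drew the figures. The members, lists and alternatives were chosen with earlier results of these data known. All members were named, with pathway genes past the threshold, up to 3 per role with the smallest p, the 3 genes most like the member that differed most, and Ins1, Ins2, Glis3 and Xist. Igf2 and Foxo1 were further named to complete a family. The Glis3 probe (clear of background in 3 WT and 0 Glis3KO2 mice) was too dim to test. The other alternatives were median scaling, other filters, trend and robust eBayes, array weights, the replicate number as a block, and left-out arrays. Irs2 minus Irs1 could not be computed without an Irs2 probe. Some genes that the rule names are not reported here.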

Additional observations from a re-analysis of the deposited data

Results flagged for a closer look

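In 44 sets of 4 arrays, 2 held an array whose gap to its nearest neighbour took nearly the whole range of the set, which chance gives in about 1 of 20 sets. The brighter Irs4 probe was at -1.92 on WT replicate 3, against -1.63 on the next WT array, and without that array the Irs4 difference was 0.21 in place of 0.28. The exon-spanning Pik3r1 probe was at -1.01 on WT replicate 2, against -1.28 on the next WT array.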

How the results depend on the processing

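No member passed the threshold under any limma alternative run, the mean of a gene's probes included. The exact permutation test cannot pass after adjustment, since its smallest p is 0.0286, so it says nothing about stability. The 8 tested genes gave 161 values, with a smallest adjusted p of 0.247 (limma, Insrr without Glis3KO2 replicate 1). The pathway list held 2 genes past the threshold under each alternative run for it. Differences changed sign in 11 of the 161. These were Insr at -0.069 with normexp background and -0.044 by the D630014A15Rik probe (chosen after seeing the data), Akt2 at -4.76e-04 with quantile normalization, -0.025 with Xist as a covariate and -0.0044 without Glis3KO2 replicates 3 and 4, Pik3r1 at 0.0099 without those 2, and, by the mean of all probes, Irs1 at -0.038 and Akt1 at -0.12. The other 3 came with 1 array left out: Insr at -0.0065 without Glis3KO2 replicate 4, and Akt2 at -0.0038 without that array and -0.036 without WT replicate 3. Leaving out 1 array, the ranges were -0.0065 to 0.23 for Insr, -0.57 to -0.19 for Insrr, 0.02 to 0.15 for Irs1, 0.20 to 0.34 for Irs4, -0.28 to -0.12 for Pik3r1, 0.10 to 0.19 for Akt1, -0.036 to 0.056 for Akt2 and 0.13 to 0.24 for Grb10. Over all probes, the 85 past the threshold became 51 with no filter, 142 with trend and robust eBayes, 27 with Xist as a covariate, 11 without Glis3KO2 replicates 3 and 4, and 35 to 96 leaving out 1 array; the cause was not tested. With the replicate number as a block the count was 15, and 0 members passed. Same-numbered samples deviated together with correlations of 0.13, 0.09, 0.24 and -0.04 (replicates 1 to 4). Replicates 1, 2 and 3 matched their own number best, and replicate 4 did not. The numbers were not taken as pairing in the main fit, and whether they mark pairs was not settled.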
